A study of Homo sapiens with 8 samples.

Results

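The genes described here encode the nuclear subunits of the respiratory chain (complexes I to IV) and of ATP synthase (complex V). They were found by symbol: every feature with values in all 8 samples and exactly 1 annotated gene whose symbol carries a subunit prefix (NDUFA, NDUFB, NDUFC, NDUFS, NDUFV, UQCR, COX4I, COX5, COX6, COX7, COX8 or ATP5) or is SDHA, SDHB, SDHC, SDHD or CYC1, with the assembly factors named NDUFAF left out. The rule found 116 of 25094 features, in 80 of 13469 genes. The prefixes also matched 2 noncoding genes with 3 features, NDUFB2-AS1 and NDUFV1-DT, which differed by 0.04 and -0.03 (log2) by their brightest features and were set apart. The remaining 78 genes with 113 features fall into complex I (36 genes), complex II (3), complex III (8), complex IV (13) and complex V (18). Another 3 genes of the rule, COX4I2, COX7A1 and COX7B2, had no values. Where a gene had several features, the brightest (by mean log2 intensity) stands for it. Per the design text and the labels, Agilent arrays were hybridised with RNA of HEK293 cells, an established human line from fetal kidney transformed with adenovirus 5 DNA. The tested cells carried a linearised pBudCE4.1 vector with the KLHL29 intronic transcript in sense orientation (4 samples) and are set against cells with the same vector and the insert in antisense orientation (4 samples). Both groups share the zeocin selection and are mixed populations of transfectants, and the replicates of a construct were thawed and grown from frozen populations of 1 transfection. Which promoter of the vector drove the insert is not given in the sources used here, and samples without an insert were not analysed here.

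Every difference below is sense minus antisense in log2 intensity, adjusted for dye, and p-values are from limma over all 25094 features. They measure the spread between samples of 1 transfected pool per construct, so the construct and the pool cannot be told apart, nor can fewer expressing cells and less RNA per cell. The number of samples limits the precision. Samples 1 and 3 of each construct carried Cy3 and samples 2 and 4 carried Cy5. The deposited filter left 21451 features above the inferred detection limits in both constructs. All 78 genes were among the features above the limits by their brightest feature, and 2 dimmer features, of NDUFS4 and SDHD, were below them in both constructs. KLHL29 itself lay below the limits in all samples. Of 9 measured markers of HEK293 and kidney lineage 8 were above the limits (NEFL, NEFM, INA, VIM, KRT8, KRT18, LHX1 and WT1), and PAX2 was not. Of 9 measured markers of other cell types 4 were above (GFAP, COL1A1, ACTC1 and CD3E) and 5 were not (PTPRC, PECAM1, VWF, COL1A2 and APOA1). In limma 0 markers passed. The neurofilament genes NEFL and NEFM differed by -0.66 (SE 0.16, adjusted p = 0.23, with no overlap between constructs) and -0.42 (SE 0.22), and VIM by 0.36 (SE 0.19). The lineage list had a median of -0.20 (-0.03 without sense 4), and the log2 of its summed intensity was 36.43 to 37.14 in sense and 36.45 to 37.19 in antisense. The list of other cell types had a median of -0.24 (-0.015 without sense 4) and log2 sums of 32.88 to 33.76 in sense and 33.01 to 33.52 in antisense. These sums mostly reflect the brightest marker of each list, VIM (mean log2 36.08) and ACTC1 (32.94), rather than the list as a whole. The part of these markers in the differences below was not tested. By the submitters' rule sense 4 and antisense 2 were the samples to leave out. Leaving out sense 4 gave a mean coefficient of variation of 0.189 over the features, and leaving out any other sense sample gave 0.213 to 0.242. Leaving out antisense 2 gave 0.119, and any other antisense sample 0.166 to 0.182. Column medians were equal or nearly so in samples 1 and 2, and in samples 3 and 4, of each construct. Over the features above the limits, sense 1 minus sense 3 correlated with sense 2 minus sense 4 at r = 0.38, and the same antisense differences at r = 0.52. The labels do not name the arrays, nor say whether samples 1 and 2, or 3 and 4, share an array or RNA. The limma p-values and the SDs over 4 samples treat all samples of a construct as independent. If such pairs are not independent, these values rest on fewer units than 4 per construct. Values with these pairs as a random block are in the closing section.

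The respiratory chain sits in the inner mitochondrial membrane. Complex I takes electrons from NADH and complex II from succinate, both pass them to ubiquinone, complex III hands them to cytochrome c, and complex IV reduces oxygen. Complexes I, III and IV pump protons, and complex V lets the protons return through its c-ring and uses that flow to make ATP. Most subunits are encoded in the nucleus and are imported after translation, and a smaller set, made in the mitochondrion, was not analysed here. Nuclear respiratory factor 1 (NRF1) and the ETS factor GABP are known to bind many promoters of these genes.

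Promoters of 66 of the 78 genes were found in the RefSeq table (GRCh38.p14), and 250 bases before the annotated start were searched on both strands. The NRF1 motif, GCGCA and GCGC with any single base between them, was in 13 of the 66 (19.7%), against 5.07% of all 35116 promoters there. Those 35116 were not limited to protein-coding or measured genes, so the shares compare unlike sets. Promoters of measured genes alone were not counted. The ETS motif CCGGAAG was in 16 (24.2%), against 8.52% of all promoters. The YY1 motif AAGATGGCG was in 1, ATP5PF, which is 1.52%, against 0.652% of all promoters. The motifs do not contain one another. The median difference was -0.22 in genes with the NRF1 letters and -0.19 in those without them, and -0.20 and -0.18 with and without the ETS letters. A match describes the sequence and does not show binding. The promoters below are those with the most kinds of these motifs in each complex, with ties settled by the smallest p. Capitals mark the motif letters. NDUFA9 lies at chr12:4648864-4649113 (plus strand) and holds the NRF1 letters. SDHD lies at chr11:112086623-112086872 (plus strand) and UQCR11 at chr19:1605463-1605712 (minus strand), and both hold NRF1 and ETS letters. COX8A lies at chr11:63974370-63974619 (plus strand) with the ETS letters. ATP5PF lies at chr21:25735055-25735304 (minus strand) with YY1 and ETS letters.
NDUFA9: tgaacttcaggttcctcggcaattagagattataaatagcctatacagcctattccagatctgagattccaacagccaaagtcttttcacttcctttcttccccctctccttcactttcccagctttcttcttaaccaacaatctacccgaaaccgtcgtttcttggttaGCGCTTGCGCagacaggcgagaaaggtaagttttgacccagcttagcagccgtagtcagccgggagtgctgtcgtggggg
SDHD: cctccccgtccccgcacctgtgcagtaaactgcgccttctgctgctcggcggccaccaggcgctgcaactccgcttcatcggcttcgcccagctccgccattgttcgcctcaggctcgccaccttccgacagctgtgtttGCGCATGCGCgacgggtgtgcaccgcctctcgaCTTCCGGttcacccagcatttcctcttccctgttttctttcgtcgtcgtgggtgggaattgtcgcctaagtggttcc
UQCR11: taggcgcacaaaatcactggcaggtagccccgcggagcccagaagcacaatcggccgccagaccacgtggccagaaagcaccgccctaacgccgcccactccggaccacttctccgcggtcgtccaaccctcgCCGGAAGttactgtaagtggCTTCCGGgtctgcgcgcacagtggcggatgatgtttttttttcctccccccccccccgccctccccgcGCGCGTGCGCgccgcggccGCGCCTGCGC
COX8A: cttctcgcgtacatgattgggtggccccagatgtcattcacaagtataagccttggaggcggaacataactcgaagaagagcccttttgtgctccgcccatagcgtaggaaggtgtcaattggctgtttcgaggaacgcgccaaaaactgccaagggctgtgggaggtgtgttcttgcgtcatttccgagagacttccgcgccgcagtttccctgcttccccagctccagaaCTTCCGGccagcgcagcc
ATP5PF: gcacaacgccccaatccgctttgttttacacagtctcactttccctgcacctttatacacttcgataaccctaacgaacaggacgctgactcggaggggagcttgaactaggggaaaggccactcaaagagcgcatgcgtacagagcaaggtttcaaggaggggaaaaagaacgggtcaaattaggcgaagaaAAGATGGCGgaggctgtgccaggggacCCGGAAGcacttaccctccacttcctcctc

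Subunit transcripts leaned towards lower values in sense cells, but no gene of the chain passed the test. Of the 78 genes 66 had a negative difference (84.6%), against 56.7% of all 13469 genes, and their median was -0.19, against -0.05 for all genes. Among the 1313 genes in the members' upper range of brightness, described below, 82.2% were negative and the median was -0.17. In limma 0 of 78 passed an adjusted p under 0.05 (smallest by brightest feature 0.26, SDHC), where 0.0594% of all genes and 0.0677% of all features did. At an unadjusted p under 0.05, 12 genes were lower and 0 higher in sense (15.4% and 0%), against 8.26% and 6.71% of all genes. Among the 1313 bright genes these shares were 16.5% and 1.75%. Every sense sample lay below every antisense sample for 6 of the 78 (7.69%), against 3.5% of all genes and 8.45% of the 1313 bright genes. These were UQCRC2, COX5A, ATP5MC1, ATP5MG, NDUFA3 and NDUFV3, named for that reason after their values were seen. Dimmer features of COX5A (-0.10), ATP5MG (-0.11) and NDUFV3 (-0.15 and -0.13) overlapped between constructs. The reverse, with sense wholly above antisense, held for 0 of the 78 by brightest feature. The share was 3.36% of all genes and 0.914% of the 1313 bright genes. A dimmer COX4I1 feature, above the limits, did lie wholly above in sense (0.38). A dimmer ATP5F1D feature gave 0.33 (limma unadjusted p = 0.043), with overlap between constructs. The submitters' stated method, SAM on 3 against 3 samples, called 0 of the 78 at a false discovery rate of at most 5.4% or 10.3%. At 5.4% it called 0.148% of all genes lower and 1.38% higher (1.67% of all features), and at 10.3% it called 1.67% of all genes lower and 4.32% higher. At 10.3% a dimmer feature of UQCR10, of complex III, was called lower.

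**Figure D1:**
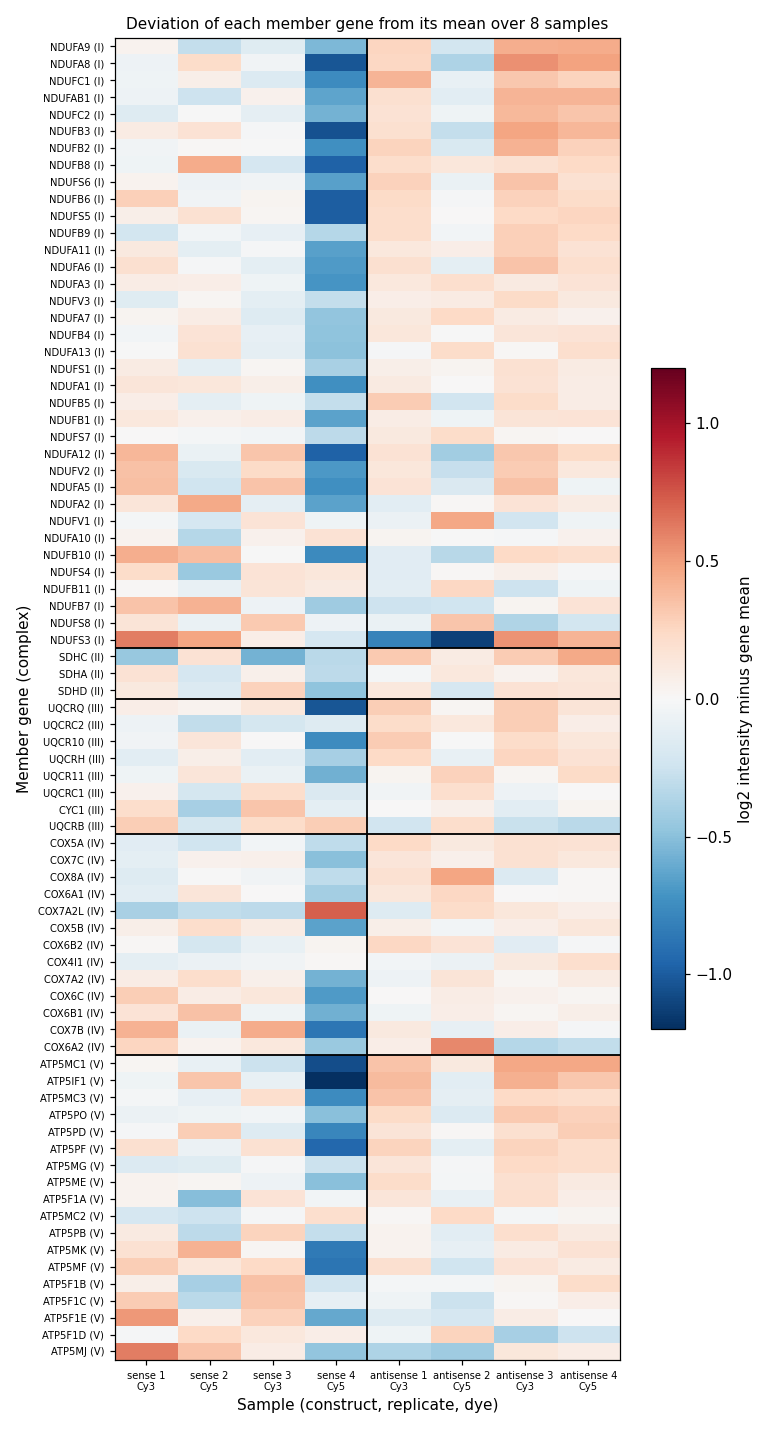
Each row is a member gene (complex in brackets) and each column a sample, and the colour is the log2 intensity minus the gene's mean over the 8 samples. Sense 4 is blue over most rows, and was the lowest of the 8 samples for 58 of the 78 genes.

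Other bright features also leaned lower in sense, by a similar median over all of them (-0.17 against -0.19 for the members). In the brightest bins, which include sense 4, and within Cy5 the members' medians were more negative. Within Cy3 the members were less negative (-0.10 against -0.18), as they were without sense 4 (-0.10 against -0.14). The same held without antisense 2 (-0.18 against -0.20) and without both (-0.10 against -0.16). The median difference of all genes ran from 0.10 among those with a mean log2 intensity of 27 to 28 to -0.19 at 34 to 35. Of the genes, 1313 had a mean of at least 33.06, the lower quartile of the members. Their median difference was -0.17 and 82.2% were negative, and 58 of the members are among them. Within single bins the members' median was -0.13 at 33 to 34 (20 members), against -0.16 for all 663 genes there. At 34 to 35 it was -0.24 (22 members), against -0.19 for 362 genes. At 35 to 36 it was -0.29 (16 members), against -0.18 for 188 genes. Quantile normalization moved the members' median to -0.08 and that of the bright genes to -0.04, with 52 of 78 members negative. The part of signal brightness in the members' shift was not tested.

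**Figure D2:**
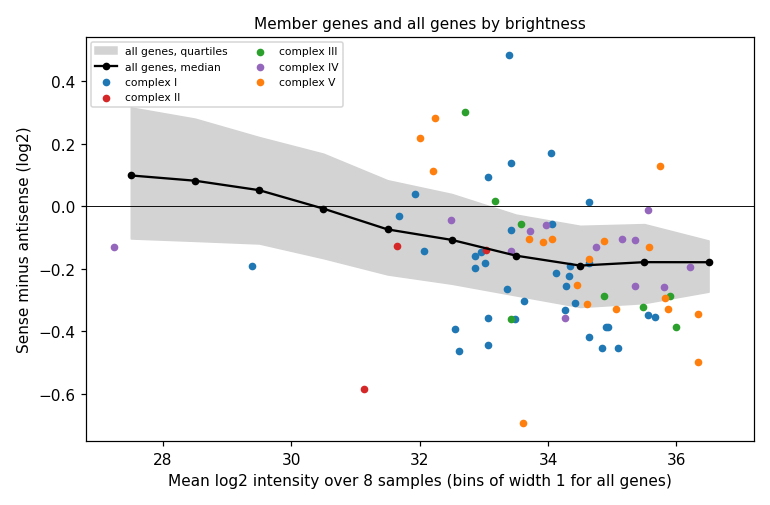
The sense minus antisense difference (log2) of each member gene is plotted against its mean log2 intensity. The black line is the median of all genes in bins of width 1 and the grey band their quartiles. The line stands at 0.10 in the bin from 27 to 28 and at -0.18 from 35 to 36, where the median of the 16 members is -0.29.

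Sense 4 had the lowest values. The median deviation of the 78 genes from their own means was 0.05, -0.01, 0.004 and -0.50 in the sense samples numbered 1 to 4, and 0.13, -0.007, 0.18 and 0.14 in the antisense samples. Sense 4 was the lowest of the 8 samples for 74.4% of these genes, against 25.1% of all genes and 47.8% of the 1313 bright genes. Without sense 4 the median difference was -0.10, with 55 of 78 negative, and it was -0.18 without antisense 2 and -0.10 without both. The bright genes then stood at -0.14 without sense 4 (74.5% negative), -0.20 without antisense 2 and -0.16 without both. Sense 1 to 3 thus lay near the members' means, while antisense 1, 3 and 4 lay above them and antisense 2 with the sense samples.

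The dyes did not give the same picture. Within the Cy3 samples the members' median difference was -0.10, with 47 negative, and within Cy5 it was -0.33, with 72 negative. In the bright genes the medians were -0.18 within Cy3 and -0.19 within Cy5. The difference was negative in both dyes for 46 members (37.6% of all genes), and positive in Cy3 but negative in Cy5 for 26 members, against 19.1% of all genes. It was positive in both dyes for 5 members, NDUFS3, NDUFB7, UQCRB, ATP5F1D and ATP5MJ, and negative in Cy3 and positive in Cy5 for 1, COX7A2L. Sense 4 is a Cy5 sample, and each dye holds 2 samples of a construct.

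**Figure D3:**
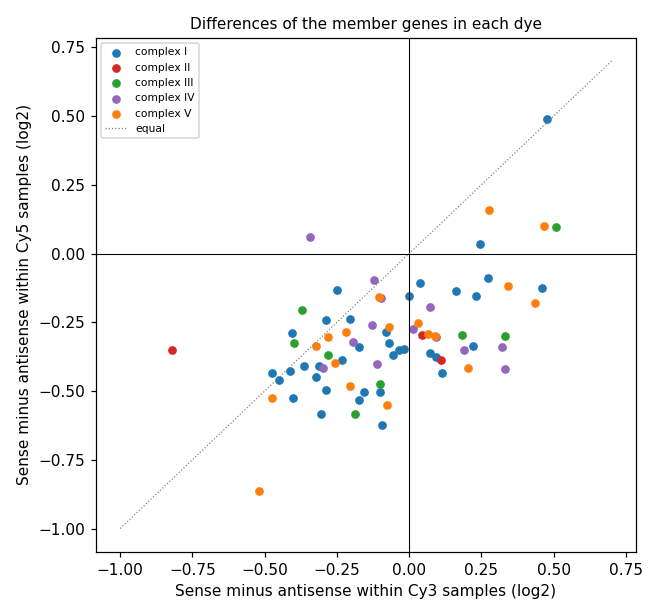
Each point is a member gene, with its sense minus antisense difference (log2) within the Cy3 samples on the x axis and within the Cy5 samples on the y axis. Of the 78 points, 26 lie to the right of zero on the x axis and below zero on the y axis.

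Complex I had 30 of 36 genes negative and a median of -0.22. Its small accessory subunits, which surround the electron-carrying core, were negative in 26 of 30 cases with a median of -0.28 (-0.17 in Cy3, -0.38 in Cy5). The 6 measured core subunits, most of which hold flavin or iron-sulphur clusters, had 4 negative. Their median was -0.10, with 0.15 in Cy3 and -0.30 in Cy5. NDUFS1, a core subunit, stood at -0.20 by its brightest feature. A dimmer NDUFS1 feature, above the limits, gave -0.45 (SE 0.12, limma adjusted p = 0.25), with no overlap between constructs. Without sense 4 the medians were -0.12 for accessory and -0.02 for core subunits, and sense 4 was the lowest sample for 27 of the 30 and 3 of the 6. These groups were not tested against each other.

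NDUFA9, an accessory subunit at the junction of the membrane and matrix arms, read 32.66, 32.34, 32.47 and 32.08 in the sense samples, against 32.88, 32.40, 33.06 and 33.07 in the antisense samples, each in the order of their numbers, as for all genes below. Antisense 2 lay among the sense samples and the other antisense samples above them, with a difference of -0.46 (SE 0.16, adjusted p = 0.29). Its other feature gave -0.42. NDUFAB1, the mitochondrial acyl carrier protein that also sits in complex I, read 33.00, 32.81, 33.11 and 32.43 in sense, against 33.25, 32.94, 33.47 and 33.47 in antisense. Here too antisense 2 overlapped with sense, and the difference was -0.44 (SE 0.16, adjusted p = 0.30). NDUFC2, a membrane arm subunit, averaged 34.44 ± 0.25 in sense and 34.85 ± 0.20 in antisense (log2 intensity, SD, n = 4 each), a difference of -0.42 (SE 0.16, adjusted p = 0.31). NDUFB9, another membrane arm subunit, averaged 35.38 ± 0.14 in sense and 35.73 ± 0.14 in antisense, a difference of -0.35 (SE 0.14, adjusted p = 0.32).

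Some complex I genes went the other way. NDUFS3, a core subunit of the matrix arm, read 34.01, 33.87, 33.47 and 33.19 in sense, against 32.59, 32.28, 33.93 and 33.80 in antisense. Antisense 1 and 2 lay more than 1 log2 unit below antisense 3 and 4, so the antisense SD was 0.84 and the difference of 0.48 (SE 0.36, 95% interval -0.31 to 1.28) did not pass (adjusted p = 0.51). It was 0.18 without antisense 2 and 0.62 without sense 4. NDUFS8, which carries iron-sulphur clusters towards ubiquinone, differed by 0.17 (SE 0.17), with 0.46 in Cy3, -0.12 in Cy5 and 0.34 without antisense 2. NDUFS4, an accessory subunit, differed by 0.04 (SE 0.15) by its bright feature.

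**Figure D4:**
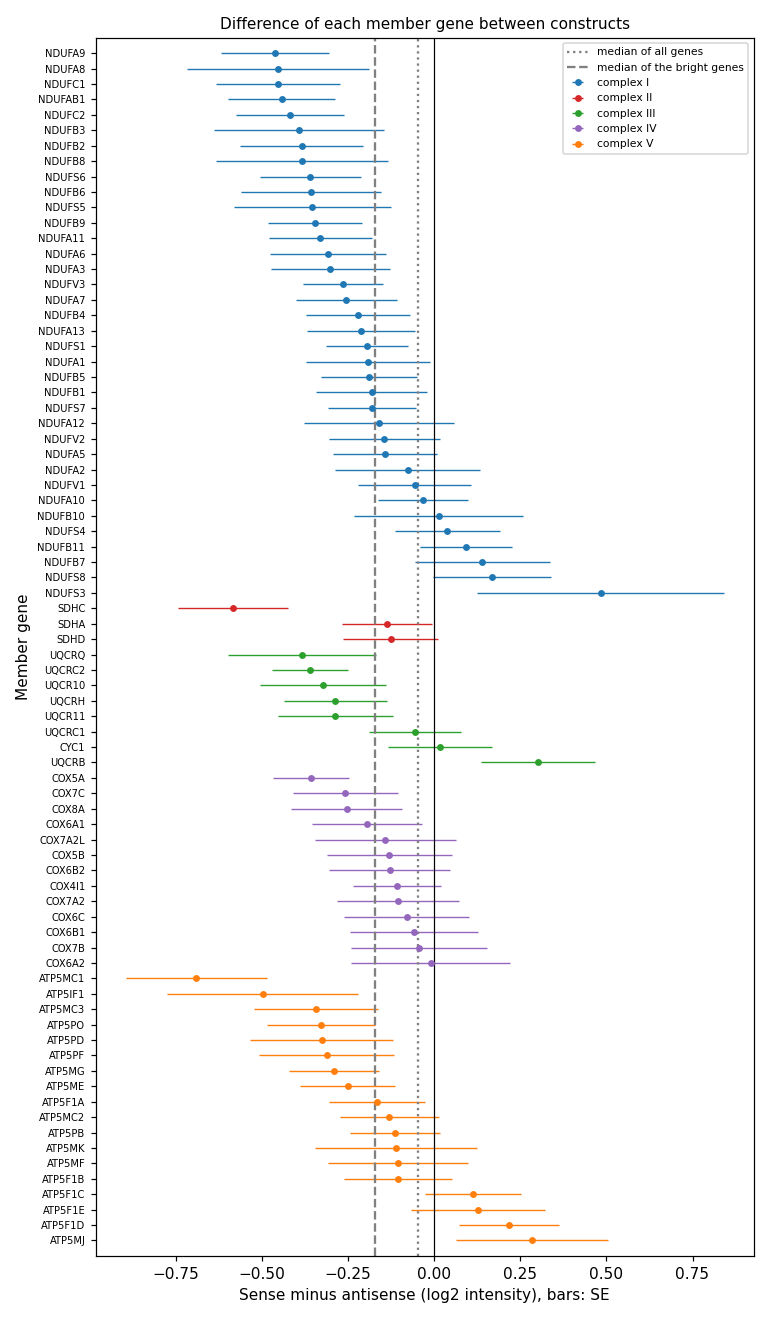
Points give the sense minus antisense difference (log2) of each member gene with its SE, coloured by complex, and dashed and dotted lines mark the medians of the 1313 bright genes (-0.17) and of all genes (-0.05). SDHC and ATP5MC1 lie farthest to the left and NDUFS3 farthest to the right.

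Complex II, succinate dehydrogenase, also serves in the TCA cycle, and 3 of its genes were measured. SDHC, a membrane anchor that binds ubiquinone, read 30.69, 31.31, 30.58 and 30.82 in sense, against 31.45, 31.24, 31.45 and 31.59 in antisense. Sense 2 lay above antisense 2 and the other sense samples lay below all antisense samples. The difference was -0.58 (SE 0.16, adjusted p = 0.26), with -0.82 in Cy3 and -0.35 in Cy5. SDHA, the flavoprotein, read 33.21, 32.84, 33.09 and 32.72 in sense, against 33.01, 33.16, 33.08 and 33.17 in antisense, so the constructs overlapped (difference -0.14, SE 0.13). SDHD, the other membrane anchor, differed by -0.13 (SE 0.14). Its 5 features ran from -0.42 to 0.03. SDHA and SDHD were positive within Cy3, by 0.11 and 0.04, and stood at -0.07 and -0.03 without sense 4.

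Complex III had 6 of 8 genes negative and a median of -0.29, which was -0.12 without sense 4. UQCRC2, a core protein of the matrix side, read 33.37, 33.13, 33.21 and 33.28 in sense, against 33.65, 33.55, 33.73 and 33.51 in antisense. The groups did not overlap and the spread was small (SD 0.10 in each). The difference of -0.36 (SE 0.11, 95% interval -0.60 to -0.12) did not pass (adjusted p = 0.27), and it was -0.40 without sense 4. UQCRC1, the partner core protein, differed by -0.06 (SE 0.13), and CYC1, the haem protein cytochrome c1, by 0.02 (SE 0.15). UQCRQ, a small accessory subunit, read 36.08, 36.04, 36.13 and 34.98 in sense, against 36.29, 36.02, 36.29 and 36.16 in antisense. Only sense 4 stood clearly low there, and the difference of -0.39 (SE 0.22) was -0.13 without it. UQCRH, the hinge protein, differed by -0.29 (SE 0.15). UQCRB, which lies near a ubiquinone site, read 33.00, 32.50, 32.93 and 33.00 in sense, against 32.48, 32.92, 32.44 and 32.38 in antisense. Samples 2 of each construct sat within the other construct's range, and the difference was 0.30 (SE 0.17, adjusted p = 0.40).

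**Figure D5:**
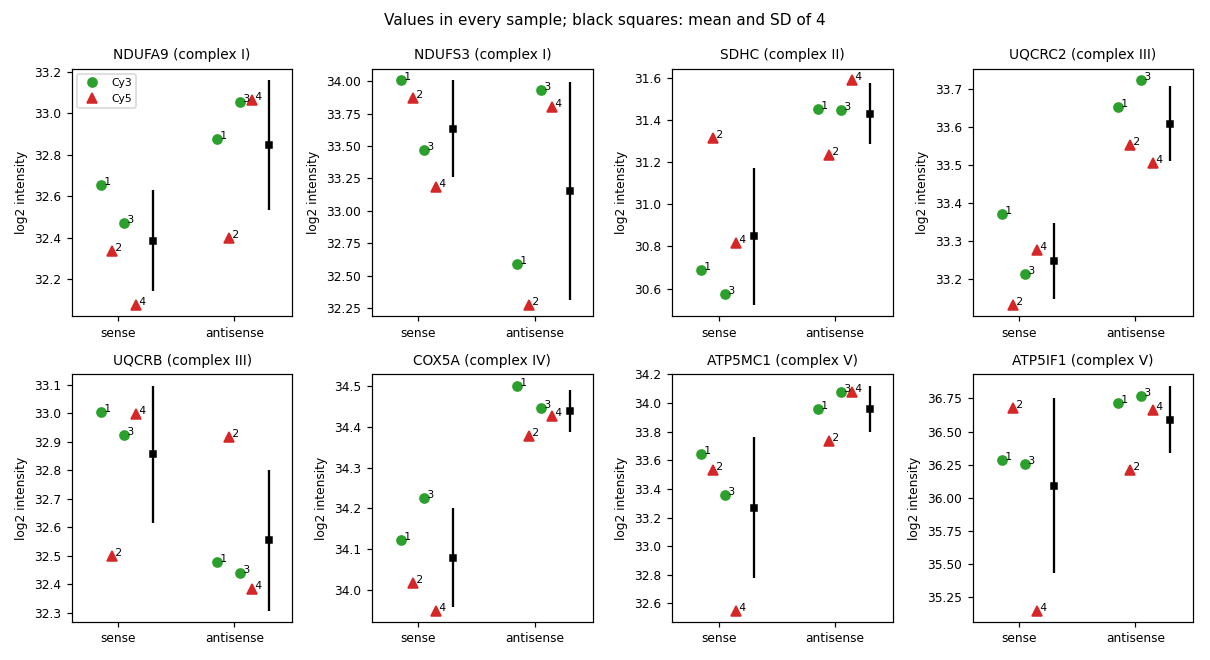
Log2 intensity of 8 member genes in every sample, with Cy3 as circles and Cy5 as triangles, replicate numbers beside them, and black squares for the mean and SD of the 4 samples. UQCRC2, COX5A and ATP5MC1 show no overlap between constructs, and antisense 1 and 2 stand low for NDUFS3.

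Complex IV, cytochrome c oxidase, had 13 of 13 genes negative with a small median of -0.13 (0.003 after quantile normalization). Without sense 4 the median was -0.07, with 7 of 13 negative. COX5A, a matrix-side subunit, read 34.12, 34.02, 34.23 and 33.95 in sense, against 34.50, 34.38, 34.45 and 34.43 in antisense. All sense samples were below all antisense samples, and the difference was -0.36 (SE 0.11, adjusted p = 0.27). Its dimmer feature gave -0.10. COX7C and COX8A, single-span membrane subunits, differed by -0.26 (SE 0.15) and -0.26 (SE 0.16), and COX6A1 by -0.20 (SE 0.16). Without sense 4 COX7C was -0.14, COX8A -0.17 and COX6A1 -0.07, and without antisense 2 COX8A was -0.13. COX6A2, known as the isoform of heart and skeletal muscle, was above the limits here and differed by -0.01 (SE 0.23). COX6B2, known from testis, was also above the limits and differed by -0.13 (SE 0.17). COX7A2L, which links complexes III and IV in supercomplexes and was singled out after its values were seen, read 33.03, 33.13, 33.10 and 34.13 in sense, against 33.26, 33.64, 33.55 and 33.49 in antisense. Sense 4 was the highest of the 8 samples for this gene, unlike most others, and the difference of -0.14 was -0.38 without it.

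Complex V had 14 of 18 genes negative and a median of -0.15 (-0.01 after quantile normalization). The 5 genes of F1, which takes in the catalytic head and the central stalk, had a median of 0.11. The 4 of the peripheral stalk stood at -0.32 and the 8 of the c-ring and membrane part at -0.19. In the same order these medians were 0.11, -0.09 and -0.16 without sense 4. The F1 median turned sign between dyes, with 0.28 in Cy3 and -0.18 in Cy5. The peripheral stalk had -0.17 and -0.37 and the membrane part -0.16 and -0.29. Of the F1 genes, ATP5F1A and ATP5F1B of the head were negative over all samples. ATP5F1C, ATP5F1D and ATP5F1E (0.13) of the central stalk were positive. ATP5MC1, which encodes a c-ring subunit, read 33.64, 33.53, 33.36 and 32.55 in sense, against 33.96, 33.74, 34.08 and 34.08 in antisense. The groups did not overlap, with sense 4 lowest. The difference was -0.69 (SE 0.20, 95% interval -1.14 to -0.24, adjusted p = 0.27), the most negative of the 78 genes, and -0.46 without sense 4. ATP5MC2 and ATP5MC3 encode the same mature c subunit, and differed by -0.13 and -0.34 (SE 0.18 for ATP5MC3, which was -0.19 without sense 4).

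ATP5IF1, the inhibitor that blocks reverse action of the synthase, read 36.29, 36.68, 36.25 and 35.15 in sense, against 36.72, 36.21, 36.77 and 36.67 in antisense. Sense 1 to 3 overlapped with the antisense samples and sense 4 lay below all of them, and the difference of -0.50 (SE 0.28) was -0.19 without sense 4. ATP5MG, a membrane subunit, averaged 35.67 ± 0.10 in sense and 35.97 ± 0.11 in antisense (SD, n = 4 each), a difference of -0.29 (SE 0.13, adjusted p = 0.35) with no overlap. Its dimmer feature gave -0.11, with overlap. ATP5PO, which ties the stalk to the head, differed by -0.33 (SE 0.16). ATP5F1D and ATP5F1C, of the central stalk, differed by 0.22 (SE 0.15, and 0.33 without antisense 2) and 0.11 (SE 0.14, with 0.34 in Cy3 and -0.12 in Cy5), while ATP5F1A and ATP5F1B, the alpha and catalytic beta subunits, differed by -0.17 and -0.10. ATP5MJ, a small membrane subunit, read 32.85, 32.58, 32.32 and 31.76 in sense, against 31.87, 31.81, 32.38 and 32.33 in antisense, with wide overlap (difference 0.28, SE 0.22, and 0.48 without sense 4). As for NDUFS3, antisense 1 and 2 were the low antisense samples.

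Different features of a gene did not always give the same value. Of the 78 genes 28 had several features, and for 6 of these the features differed in sign: COX4I1, COX7A2L, NDUFA10, NDUFB7, NDUFS4 and SDHD. For COX4I1, the main isoform of a regulatory complex IV subunit, the features ran from -0.11 to 0.38, and for NDUFS4 from -0.61, in a feature below the limits, to 0.04. Features of the same sign also differed in size, as for NDUFS1 (-0.45 and -0.20).

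Other mitochondrial genes were described by lists fixed by name. Respiratory chain assembly factors were negative in 36 of 45 measured genes (80.0%), with a median of -0.23 (-0.13 without sense 4). The share was 56.7% of all genes and 63.4% of those with a mean log2 intensity of 31 to 32, where this list's median (31.61) lies. At an unadjusted p under 0.05, 13 assembly factors were lower (28.9%) and 0 higher in sense, against 8.26% and 6.71% of all genes. All genes are dimmer (median log2 29.60), and these shares were not counted for genes of like brightness. COX18, which inserts a complex IV subunit into the inner membrane, read 30.56, 30.57, 30.74 and 29.83 in sense, against 31.36, 30.75, 31.43 and 31.11 in antisense. Each sense sample lay below each antisense sample, and the difference of -0.74 (SE 0.17) did not pass (adjusted p = 0.22). COX11, a copper chaperone of complex IV, differed by -0.45 (SE 0.12), COA3 by -0.44 (SE 0.14) and TMEM126B, of complex I assembly, by -0.41 (SE 0.12). In these lists 0 genes passed in limma over all features.

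For the next lists, the share of negative genes is set against all genes in the brightness bin that holds the list's median log2 intensity. TCA cycle genes were negative in 9 of 16 (56.2%, against 63.4% of all genes at 31 to 32). Their median was -0.05, with 0.06 in Cy3, -0.16 in Cy5 and -0.09 without antisense 2. DLD and PDHA1, of the pyruvate dehydrogenase complex, differed by -0.37 (SE 0.11) and -0.44 (SE 0.17), and IDH3A, of NAD-dependent isocitrate dehydrogenase, by 0.45 (SE 0.14, adjusted p = 0.27). Electron carriers and coenzyme Q genes were negative in 12 of 17 (70.6%, against 51.3% of all genes at 30 to 31). Their median was -0.10, which was 0.06 in Cy3, -0.29 in Cy5, -0.06 without sense 4 and -0.19 without antisense 2. ETFA and ETFB, which pass electrons from fatty acid oxidation, differed by -0.51 (SE 0.18) and -0.46 (SE 0.16). Regulators of mitochondrial gene expression were negative in 11 of 17 (64.7%, against 63.4% of all genes at 31 to 32). Their median was -0.12, which was -0.01 in Cy3, -0.30 in Cy5 and -0.23 without antisense 2. Among them TFB2M, a mitochondrial transcription factor, differed by -0.43 (SE 0.15), and TWNK, the mitochondrial helicase, by -0.37 (SE 0.13). NRF1, GABPA and TFAM differed by -0.05 (SE 0.20), -0.12 (SE 0.16) and 0.01 (SE 0.27). Carriers and import genes were negative in 13 of 16 (81.2%, against 78.4% of all genes at 33 to 34). Their median was -0.11, against -0.16 for all genes in that bin, and was -0.23 in Cy5 and -0.18 without sense 4. PHB1, an inner membrane scaffold, differed by -0.55 (SE 0.15, adjusted p = 0.25).

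The submitters' rule leaves out the samples whose removal makes the spread within a construct smallest in these same values. It thus favours a small spread before any test. In limma on the 3 against 3 samples it left, 1066 of all features passed, against 17 with all 8 samples. The share of the bright genes called there was not counted. In that fit 4 of the 78 genes passed, all lower in sense (5.13%), where 2.87% of all genes were called lower and 1.68% higher. These were NDUFA9 (-0.51, adjusted p = 0.041), SDHC (-0.64, adjusted p = 0.035), UQCRC2 (-0.39, adjusted p = 0.048) and ATP5MC1 (-0.53, adjusted p = 0.035). Over the 18 alternatives of each, their adjusted p ranged from 0.013 for SDHC, 0.041 for NDUFA9, 0.040 for UQCRC2 and 0.034 for ATP5MC1 up to 1.00, and their differences were negative in all 18. Within the Cy3 samples alone, 2 against 2, 7 members passed as lower and 4 as higher (8.97% and 5.13%), against 7.71% and 4.93% of all genes. The 4 higher ones were NDUFS8, UQCRB, COX7B and ATP5F1C.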

How the data were processed

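The submitters' processing notes name Agilent Feature Extraction 9.5. Per the series' design text, the authors called a feature expressed above the average negative control plus 3 SD, kept features expressed in all or in no replicates of a construct, and scaled samples by the 40% trimmed mean. The deposited values are linear intensity values on an unknown absolute scale, and how background and dyes were corrected is not stated in the labels. Of 45015 features 19921 had no value and 25094 had a value in all 8 samples. Gene names came from the platform annotation; all 78 gene IDs matched a current RefSeq table (GRCh38.p14).

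Values were taken as log2 with no pseudocount and compared with limma 3.58.1 in R 4.3.3 (lmFit, eBayes with trend) in a model of construct plus dye, and Benjamini-Hochberg adjustment ran over 25094 features. SAM was written for this work (all label permutations of 3 against 3 samples, then at least 1.4-fold). Detection limits were inferred from the deposited filter: the limits chosen leave the fewest features with mixed calls within a construct. Both methods were tested on simulated data. Intervals are 95%. The text names, per complex, the 4 genes with the smallest p and the 2 with the largest difference, the 6 higher genes with the smallest p, genes whose features disagree in sign by over 0.5, all SDH genes, and up to 4 genes per list. Genes outside this rule (NDUFA3, NDUFV3, NDUFB7, NDUFA10, COX4I1, COX7A2L, COX6A2, COX6B2, CYC1, ATP5MC2, ATP5F1A, ATP5F1B, UQCRC1, NRF1, GABPA, TFAM, and any others named for a sign, a feature or a sample's value) were chosen after their values were seen. The members and lists were chosen with earlier results of these data known.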

Additional observations from a re-analysis of the deposited data

Results flagged for a closer look

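Within the 4 samples of a construct, a sample was looked at again when its gap to the nearest other was past Dixon's 95% critical share of the range for 4 samples. Chance flags about 1 in 20 groups; here 17 of 156 sets of 4 over the 78 genes were past it, and the genes share their samples. Sense 4 was the low sample for NDUFA1 (33.60, others 34.41 to 34.48), NDUFB1 (32.38), NDUFB2 (34.17), NDUFB3 (31.50), NDUFS5 (34.67), NDUFS6 (32.82), NDUFS7 (34.32), UQCRQ (34.98), COX5B (34.10), ATP5MF (32.82) and ATP5PO (35.37). It was also low for PDHA1 (33.33) and ETFB (33.25) of the other lists. It was the high sample for COX7A2L (34.13, others 33.03 to 33.13). Antisense 2 was the low sample for NDUFB4 (34.32), SDHD (31.45) and ATP5PF (34.48). Sense 2 was the low sample for NDUFS4 (31.49) and UQCRB (32.50). As medians of deviations, sense 4 stood at -0.50 over all members (others -0.01 to 0.05), -0.63 in complex I and -0.44 in complex IV. Antisense 2 stood at -0.11 in complex V (others 0.14 to 0.19).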

How the results depend on the processing

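Of all 25094 features 17 passed, 8 higher and 9 lower in sense, and 3551 had an unadjusted p under 0.05. Quantile normalization gave 7 higher and 5 lower. The count was 10 without the trend, 1 with detected features only (fewer features tested), 7 with the replicate block, 7 with samples 1 and 2, and 3 and 4, of a construct as a random block (chosen after seeing the data), and 4 to 20 when leaving out 1 sample (4 without sense 3, 7 without sense 1). It was 2888 within Cy3, 4 within Cy5, 1066 by limma on 3 against 3 samples, and 420 and 1550 by SAM. For the 78 members the count stayed at 0 except for 11 within Cy3 and 4 on the 3 against 3 samples, and the replicate block and each leave-one-out fit gave 0. Same-numbered samples of the constructs deviated from their construct means at r = -0.11 to 0.28, and after construct and dye at r = -0.44 to -0.27. The labels give them only a shared number, so the replicate block is not taken as a pairing. Where counts moved, the cause was not tested.

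The members' median ran from -0.29 (without sense 2) to -0.10 (without sense 4) over the leave-one-out fits, and was negative under every alternative run. Complex II was 0.044 within Cy3 and -0.35 within Cy5, against -0.14. Complex III was -0.16 after quantile normalization, -0.14 within Cy3 and -0.13 on 3 against 3 samples, against -0.29, and ran from -0.37 to -0.12 over the leave-one-out fits. Complex IV was -0.30 within Cy5, against -0.13. Over the leave-one-out fits complex I ran from -0.33 (without sense 2) to -0.10 (without sense 4), against -0.22, complex II from -0.21 (without sense 1) to -0.065 (without sense 4), complex IV from -0.22 (without sense 2) to -0.071 (without sense 4), and complex V from -0.29 (without sense 2) to -0.094 (without sense 4), against -0.15. Within Cy5 complex I was -0.36 and complex V -0.30. Signs turned for NDUFS4 when samples were centred on their medians (-0.0045), within Cy5 (-0.16) and without sense 1 (-0.011), sense 4 (-0.038) or antisense 1 (-0.041), with a range of -0.041 to 0.19 over the leave-one-out fits. They also turned for NDUFS8 (-0.12) and ATP5F1C (-0.12) within Cy5, and for SDHA (0.11) and SDHD (0.044) within Cy3. Of these genes NDUFS8 and ATP5F1C passed in limma within Cy3 (adjusted p = 0.0495 and 0.045), and the other 3 passed under no alternative. All 78 genes were above the detection limits in both constructs, so none of their differences is a bound.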
